A study of Homo sapiens with 16 samples.

Results

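The members are 9 chemokine genes, CCL2, CCL7, CCL5, CCL20, CX3CL1, CXCL9, CXCL10, CXCL11 and CXCL16, taken by name from the 20033 protein-coding genes of GENCODE 44 on hg38. No measured value entered the choice. The assay was H3K27ac ChIP-seq, and the cells were MDA-MB-231 and Hs578T, human cell lines of triple-negative breast cancer. Each line was used as control cells or as Fn14 KO cells, in which the TWEAK receptor Fn14 (gene TNFRSF12A) was targeted by CRISPR with 2 different guides. The study's methods state that Fn14 KO cells were identified by western blotting and checked by Sanger sequencing, and its supplement groups their sequencing primers with those for CRISPR clones. How many clones each line stands for, and what the control cells carried, is not given in the sources used here. Cells of each line and genotype were starved for 8 h and then left untreated or given 10 ng/ml TWEAK for 48 h, with TWEAK replenished after 24 h. There were 8 groups of 2 samples, each deposited as 1 list of broad peaks, so 16 lists were compared, and they are named here by group and replicate number. The study's methods give 2 or more biological replicates for ChIP-seq of cell lines. They also state in general that cell line experiments were repeated independently on different days. The labels do not say so of these samples, so p-values measure the spread between these samples only.

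The lists held between 39544 and 47197 peaks and covered 64.2 to 88.9 Mb, and the read depth behind them is unknown. Only the peaks that passed the authors' caller are listed, so a gene without a peak had no listed peak, which is not a measurement of zero acetylation. The start site of TNFRSF12A held a peak in all 16 lists, Fn14 KO cells included, so H3K27ac gives no check of the edit. Of the fixed marker genes, VIM, CD44, AXL, EGFR and CAV1 of mesenchymal-like breast cancer cells held a start-site peak in all 16 lists. Among luminal markers ESR1 and PGR were at 0 lists, FOXA1 at 2 and GATA3 at 16, the last against what was set for these lines. PTPRC and CD3E of blood cells were at 0 lists, and CD14 was at 6. PECAM1 was at 0 lists at its 5′ end, but at 16 where every transcript start was counted.

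Chemokines are small secreted proteins that draw leukocytes along a gradient by binding G protein-coupled receptors. CCL2 and CCL7 attract monocytes through CCR2, CCL5 attracts T cells and monocytes, and CCL20 attracts CCR6-bearing cells. CXCL9, CXCL10 and CXCL11 are the interferon-inducible ligands of CXCR3, whereas CX3CL1 and CXCL16 are made as membrane-bound proteins that sheddases release. Acetylation of histone H3 at lysine 27 marks active promoters and enhancers. TWEAK binding to Fn14 is known to activate NF-κB, whose sites lie in the promoters of many chemokine genes.

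Peaks were recorded in 2 windows per gene, 2 kb to each side of the 5′ end and the gene body extended by 50 kb to each side. In the smaller window 8 of the 9 members had no peak in any list, beside 37.8% of all protein-coding genes. The exception was CCL5. In the larger window CCL2 and CCL7, whose windows overlap, had no peak in any of the 16 lists, beside 9.82% of all genes, and were not tested. The other 7 members were tested among 17915 genes whose larger window held a peak in at least 2 lists. The windows of CXCL9, CXCL10 and CXCL11 overlap, and those of CXCL9 and CXCL10 held the same peaks, so these members are not separate measurements. Kilobases covered by peaks were compared with limma, and a gene was called where the Benjamini-Hochberg adjusted p over all tested genes was under 0.05.

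To examine the response to TWEAK, coverage was compared within each line and genotype. It was not corrected for the strength of the lists, which differed by treatment in control cells, as given further on. In MDA-MB-231 control cells 4 of the 7 tested members gained coverage, CCL5, CXCL9, CXCL10 and CXCL11, whereas 3.86% of all tested genes did. None lost coverage, beside 2.74% of all. In Hs578T control cells only CCL5 gained coverage among the 7, beside 3.29% of all, and none lost it, beside 4.08% of all. In Fn14 KO cells no member was called in MDA-MB-231 (0% of all genes in either direction) or in Hs578T (0% as well) by limma. At an unadjusted limma p under 0.05, 0 of the 7 passed in MDA-MB-231 and 2, CX3CL1 and CXCL11, were higher in Hs578T. The share of all genes under this unadjusted threshold is not given here, so the count is not read as a result about the members. The limma estimates of the 4 comparisons are drawn side by side for each tested member.

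**Figure D1:**
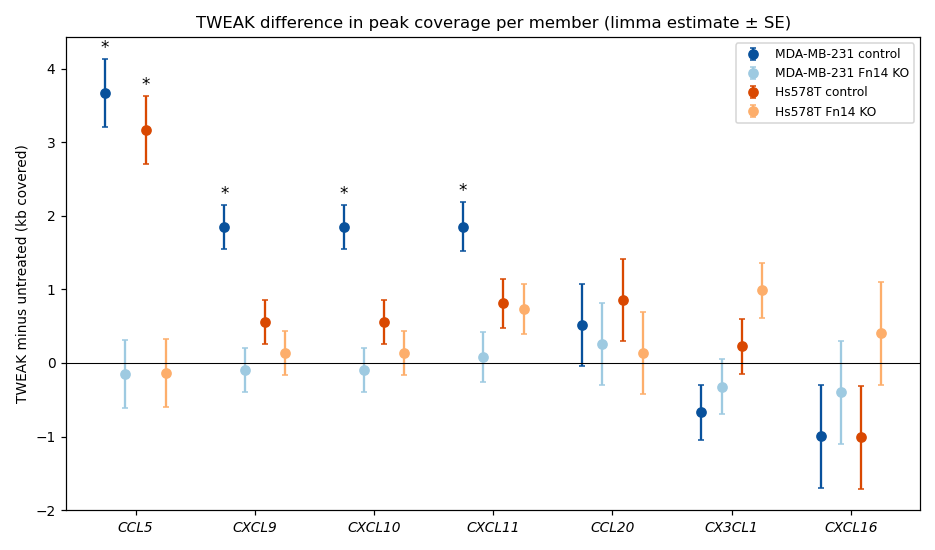
Difference in kilobases covered by H3K27ac peaks, TWEAK minus untreated, for the 7 tested members. Points are limma estimates, bars are 1 standard error to each side, and an asterisk marks an adjusted p under 0.05. The CCL5 points of control cells sit at 3.67 kb in MDA-MB-231 and 3.17 kb in Hs578T, while both Fn14 KO points lie close to 0.

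CCL5 lies at chr17:35871491-35880793 on the minus strand. In its larger window the untreated MDA-MB-231 control lists had 0 and 0 bp covered, and the TWEAK lists had 3475 and 3872 bp. The untreated Hs578T control lists had 297 and 0 bp, and the TWEAK lists had 4102 and 2535 bp. The 4 TWEAK lists of control cells were therefore all above the other 12 lists, which ranged from 0 to 1000 bp. MDA-MB-231 cells without Fn14 had 1000 and 0 bp untreated and 0 and 695 bp with TWEAK. Those of Hs578T had 0 and 870 bp without and 589 and 0 bp with TWEAK. The groups of Fn14 KO cells overlapped in both lines. Coverage rose by 3.67 kb ± 0.46 (SE, n = 2 lists per group, limma adjusted p = 0.000348) in MDA-MB-231 control cells and by 3.17 kb ± 0.46 (adjusted p = 0.00121) in Hs578T control cells. In Fn14 KO cells the differences were -0.15 kb ± 0.46 and -0.14 kb ± 0.46, each with an adjusted p of 1. The rise in Hs578T did not pass where peaks below a −log10 q-value of 8.38, the median over all lists, were dropped (0.68 kb, adjusted p = 0.335).

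**Figure D2:**
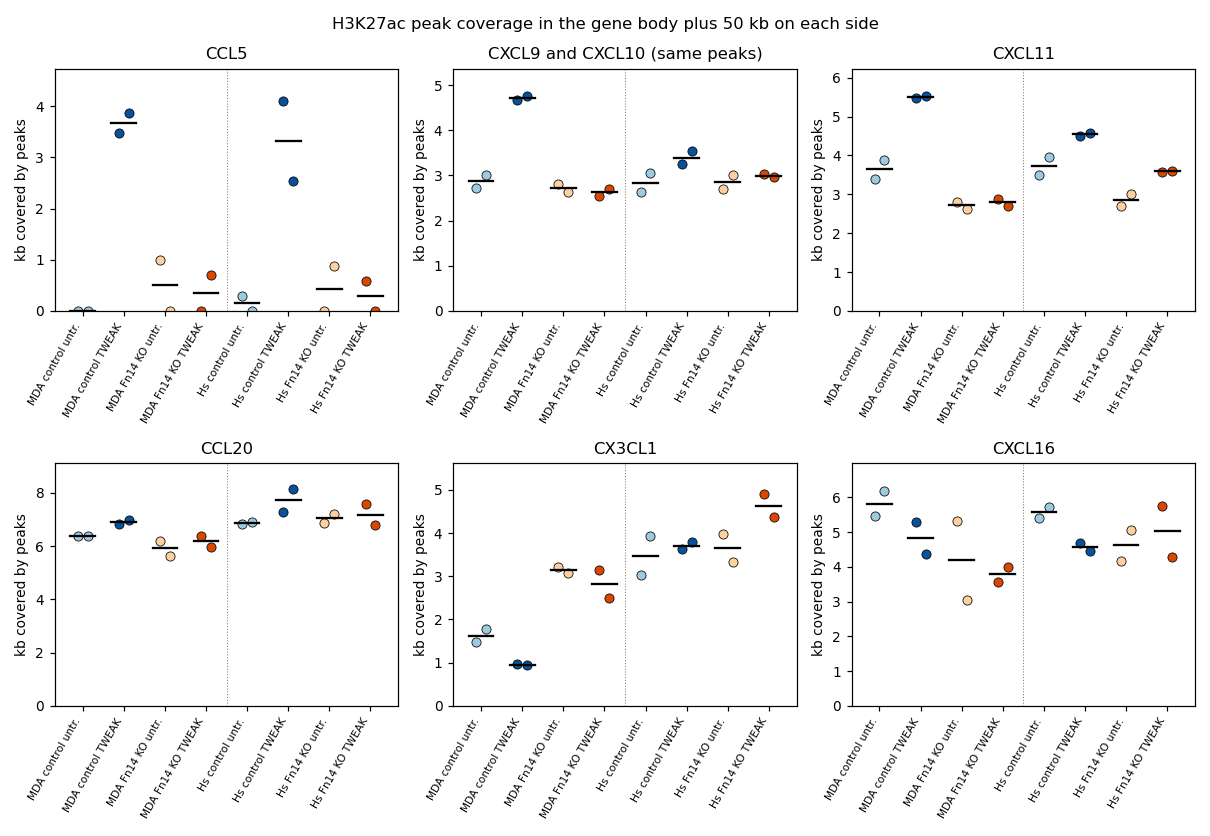
Kilobases covered by H3K27ac peaks in the gene body plus 50 kb on each side, in MDA-MB-231 (MDA) and Hs578T (Hs) control and Fn14 KO cells, untreated (untr.) or with TWEAK. Each point is 1 list, the horizontal bars are means of 2 lists, and the vertical scale starts at 0. CCL5 stands at 2.54 to 4.10 kb in the 4 TWEAK lists of control cells and at 0 to 1.00 kb elsewhere.

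Peaks near CCL5 fell into 5 regions, where peaks of the 16 lists were merged and kept if found in at least 2 lists. A region was counted as gained where both TWEAK lists and neither untreated list held a peak. The strongest region lay 8.76 kb upstream of the 5′ end, between genes, at chr17:35889549-35891082. Its fold enrichment over background was 9.65 and 10.3 in MDA-MB-231 control TWEAK 1 and 2 and 6.17 and 5.66 in those of Hs578T, and no untreated control list had a peak there. Fn14 KO cells held it in 2 lists of MDA-MB-231, untreated 1 at 3.16 and TWEAK 2 at 3.26, and in no list of Hs578T. A neighbouring region 11.1 kb upstream, at chr17:35891882-35893218, held a peak in the 4 TWEAK lists of control cells only, at 4.93 and 4.69 in MDA-MB-231 and 2.94 and 2.93 in Hs578T. At the CCL5 start itself, chr17:35879729-35881083, MDA-MB-231 control TWEAK 1 and 2 held a peak, at 4.23 and 5.64, and so did Hs578T control TWEAK 1, at 2.94. Another region in the body of TAF15, 40.6 kb downstream, was gained in Hs578T control cells at 2.68 and 3.10 but also held a peak in MDA-MB-231 control TWEAK 2, MDA-MB-231 Fn14 KO untreated 1 and Hs578T Fn14 KO TWEAK 1.

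**Figure D3:**
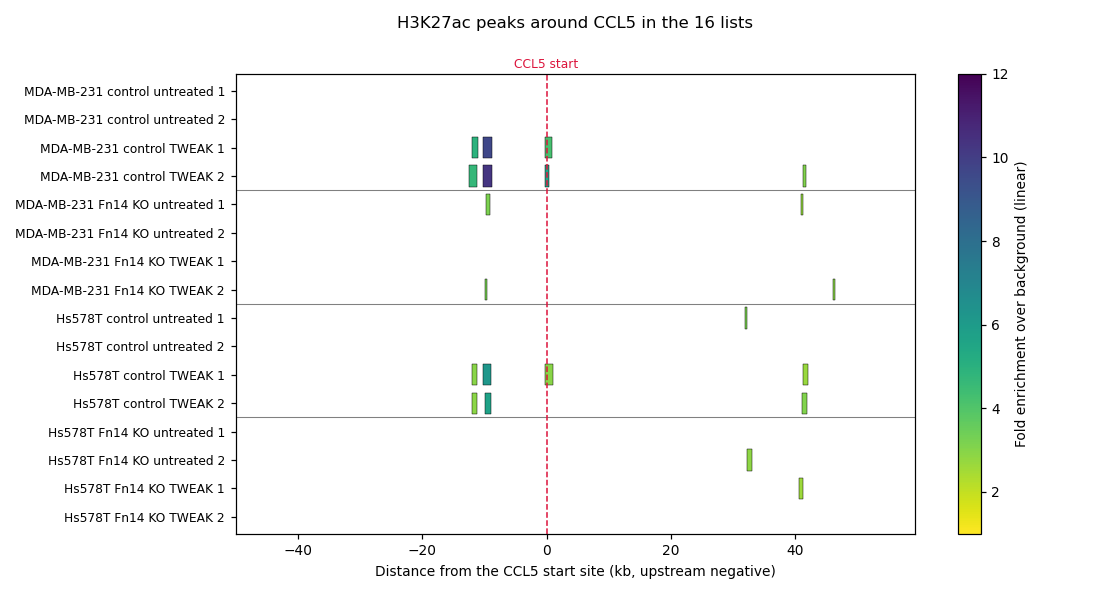
Position of every listed H3K27ac peak around CCL5, in kb from its 5′ end with upstream negative. Each row is 1 list, each box is 1 peak drawn to scale along the horizontal axis, and colour gives its fold enrichment on a linear scale. The boxes about 9 and 11 kb upstream stand in the 4 TWEAK lists of control cells, the former reaching 10.3.

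In MDA-MB-231 control cells 1 of the 9 members, CCL5, gained a peak within 2 kb of its 5′ end, beside 0.349% of all protein-coding genes, and in Hs578T control cells 0 did, beside 0.414%. CCL5 coverage there was 1144 and 649 bp in MDA-MB-231 control TWEAK 1 and 2, 1328 bp in Hs578T control TWEAK 1, and 0 bp in the other 13 lists. By limma over the genes with a start-site peak in at least 2 lists, the differences of 0.90 kb ± 0.32 (adjusted p = 0.325) and 0.66 kb ± 0.32 (adjusted p = 0.513) did not pass. CCL5 entered this fit only through TWEAK-treated control lists.

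The 300 bases at the centre of the region 8.76 kb upstream of CCL5 are shown because this region had the highest fold enrichment of the member regions gained with TWEAK in control cells. They span chr17:35890166-35890465 on the plus strand of hg38, and capitals mark matches to the motifs searched.
CCL5 upstream region, plus strand: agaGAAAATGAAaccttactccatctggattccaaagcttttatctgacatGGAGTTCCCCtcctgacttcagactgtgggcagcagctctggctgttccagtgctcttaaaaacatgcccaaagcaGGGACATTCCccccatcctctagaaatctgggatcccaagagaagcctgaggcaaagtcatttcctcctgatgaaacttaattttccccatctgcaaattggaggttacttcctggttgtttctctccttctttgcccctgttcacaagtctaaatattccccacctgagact
The capitals begin with 1 match to the interferon-stimulated response element core GAAANNGAA, followed by 2 matches to the kB consensus, the DNA motif bound by NF-κB dimers. Searches covered both strands. In the centres of all 55071 consensus regions on the main chromosomes, 8.69% held a kB match and 11.5% an interferon-stimulated response element core. A match describes the letters and is not evidence of binding.

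CXCL9 (chr4:76001275-76007509), CXCL10 (chr4:76021118-76023497) and CXCL11 (chr4:76033682-76041415), all on the minus strand, stand side by side. The shared window of CXCL9 and CXCL10 had 2719 and 3018 bp covered in untreated MDA-MB-231 control cells and 4675 and 4769 bp with TWEAK. Hs578T control cells had 2631 and 3046 bp without and 3251 and 3544 bp with TWEAK. The TWEAK lists were above the untreated lists in both lines. Coverage rose by 1.85 kb ± 0.30 (limma adjusted p = 0.00201) in MDA-MB-231 and differed by 0.56 kb ± 0.30 (adjusted p = 0.296) in Hs578T. With the −log10 q-value minimum of 8.38 the difference in MDA-MB-231 was 0.39 kb for CXCL9, CXCL10 and CXCL11 and did not pass (adjusted p = 0.827). The difference between the lines, Hs578T minus MDA-MB-231, was -1.29 kb ± 0.42 with an adjusted p of 0.970, so the lines were not shown to differ. Without Fn14 the window had 2800 and 2630 bp untreated and 2542 and 2704 bp with TWEAK in MDA-MB-231, and 2708 and 3009 bp against 3039 and 2957 bp in Hs578T. Those pairs overlapped.

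CXCL11 had 3404 and 3896 bp covered in untreated MDA-MB-231 control cells, 5480 and 5525 bp with TWEAK, 3505 and 3967 bp in untreated Hs578T control cells and 4512 and 4581 bp with TWEAK. Coverage rose by 1.85 kb ± 0.34 (limma adjusted p = 0.00462) in MDA-MB-231 control cells and differed by 0.81 kb ± 0.34 (adjusted p = 0.166) in Hs578T control cells. The call in MDA-MB-231 was lost when control TWEAK 2 was left out (1.83 kb, adjusted p = 0.0508), and with 20 kb in place of 50 kb on each side (0.43 kb, adjusted p = 0.402). In Hs578T Fn14 KO cells CXCL11 had 2708 and 3009 bp untreated and 3568 and 3612 bp with TWEAK, a difference of 0.73 kb ± 0.34 (adjusted p = 1). Part of that came from a region in the body of ART3, 48.3 kb upstream, which was gained there at 3.24 and 3.40 and held a peak in every control list.

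The peak that set control TWEAK cells apart at this locus was at chr4:76035476-76036885. It held a peak in all 4 TWEAK lists of control cells, at a fold enrichment of 5.03 and 5.10 in MDA-MB-231 and 4.01 and 3.61 in Hs578T, and in none of the other 12 lists. It covers position 76036070, the start of a shorter CXCL11 transcript in GENCODE and the start site in RefSeq, and lies 4.53 kb downstream of the 5′ end used above. The start-site window around the 5′ end therefore missed it. Where any protein-coding transcript start was counted, CXCL11 start-site coverage was 964 and 1148 bp in MDA-MB-231 and 651 and 934 bp in Hs578T control TWEAK lists, and 0 bp in the other 12. With peaks in these 4 lists only, CXCL11 met the minimum of 2 lists through the group where it was high, so no test of it is given. By presence, CCL5 and CXCL11 gained a peak at any transcript start in MDA-MB-231 control cells, beside 0.389% of genes, and CXCL11 and CCL20 in Hs578T control cells, also beside 0.389%.

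**Figure D4:**
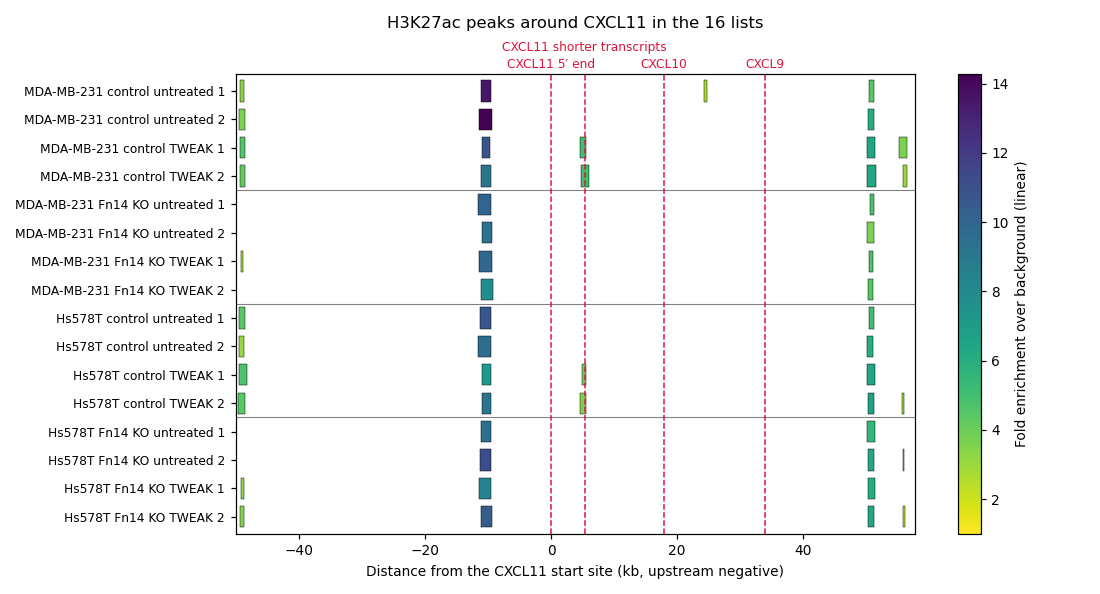
Listed H3K27ac peaks around CXCL11, in kb from its 5′ end with upstream negative, drawn as boxes to scale for each of the 16 lists and coloured by fold enrichment. Dashed lines mark the 5′ end and the shorter transcripts' start of CXCL11 and the starts of CXCL10 and CXCL9. The box at the shorter transcripts' start appears in the 4 TWEAK lists of control cells only, and no list has a box at the CXCL9 or CXCL10 start.

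No peak lay within 2 kb of the CXCL9 or CXCL10 start in any list. The remaining gain in MDA-MB-231 control cells came from the body of SDAD1, where a region at chr4:75984955-75986272 was gained at 3.70 and 3.01, with peaks also in Hs578T control TWEAK 2 and in 2 lists of Hs578T Fn14 KO cells, and from the SDAD1 start region, which was covered over 757 and 1025 bp without and 1232 and 1440 bp with TWEAK. The tallest peak of the locus, in the body of ART3 at chr4:76050654-76053007, went the other way. Its fold enrichment was 13.5 and 14.3 in untreated and 10.8 and 9.09 in TWEAK-treated MDA-MB-231 control cells, and 10.8 and 9.59 against 7.15 and 9.19 in Hs578T control cells. Centred on list medians, as for CCL20 further on, it fell by 0.57 ± 0.14 in log2 units (limma adjusted p = 0.00233) and by 0.39 ± 0.14 (adjusted p = 0.0408). The call in MDA-MB-231 was lost without control TWEAK 2 (adjusted p = 0.0644). That in Hs578T was lost without centring (adjusted p = 0.118) and without untreated 1, untreated 2 or TWEAK 1 (adjusted p = 0.185, 0.0740 and 0.351). Because it is the tallest peak in the window, the highest fold enrichment of CXCL9, CXCL10 and CXCL11 fell in MDA-MB-231 control cells while their coverage rose (-0.45 on the log2(fold enrichment + 1) scale, adjusted p = 0.0402).

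Promoters from RefSeq (GRCh38.p14, from 250 bases before to 50 after the start site) were given for 5 of the 9 members, CCL7, CCL20, CXCL9, CXCL10 and CXCL11. Those of CCL2, CCL5, CX3CL1 and CXCL16 are not shown. The CXCL11 and CXCL10 promoters follow because a TWEAK peak covered the first and no list had a peak at the second. They span chr4:76036021-76036320 and chr4:76023448-76023747 and are written along the minus strand, with motif matches in capitals.
CXCL11 promoter: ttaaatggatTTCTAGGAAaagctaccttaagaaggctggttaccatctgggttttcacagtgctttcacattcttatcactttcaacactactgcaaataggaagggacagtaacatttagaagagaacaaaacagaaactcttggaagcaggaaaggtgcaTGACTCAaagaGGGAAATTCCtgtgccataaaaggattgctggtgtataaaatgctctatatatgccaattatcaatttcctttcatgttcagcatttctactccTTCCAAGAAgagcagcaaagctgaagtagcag
CXCL10 promoter: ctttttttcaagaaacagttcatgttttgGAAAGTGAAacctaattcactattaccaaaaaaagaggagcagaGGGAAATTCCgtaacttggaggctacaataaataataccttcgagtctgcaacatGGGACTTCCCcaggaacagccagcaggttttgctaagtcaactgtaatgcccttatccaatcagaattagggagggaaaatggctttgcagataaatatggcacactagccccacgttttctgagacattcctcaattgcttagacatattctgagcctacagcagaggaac
In CXCL11 the capitals mark 2 gamma-activated sites TTCNNNGAA, the AP-1 site TGANTCA from base -87 and a kB match from base -76, counted from the start site with -1 just before it. In CXCL10 they mark 1 interferon-stimulated response element core and 2 kB matches, from bases -177 and -122. The CXCL9 promoter held 1 interferon-stimulated response element core and no kB match. Of the 5 promoters 3 held a kB match, 2 an interferon-stimulated response element core, 2 a gamma-activated site and 2 an AP-1 site. Among 35116 promoters of this length the shares were 11.3%, 8.11%, 7.66% and 7.71%.

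CCL20 lies at chr2:227805739-227817564 on the plus strand, and its larger window held peaks in every list. Coverage was 6388 and 6382 bp in untreated and 6838 and 6962 bp in TWEAK-treated MDA-MB-231 control cells, and 6829 and 6906 bp against 7295 and 8148 bp in Hs578T control cells. The TWEAK lists were above the untreated ones in both lines, but their differences, 0.52 kb ± 0.56 (limma adjusted p = 0.688) and 0.85 kb ± 0.56 (adjusted p = 0.405), did not pass. In Fn14 KO cells the groups overlapped, with 6193 and 5625 bp untreated and 6362 and 5979 bp with TWEAK in MDA-MB-231, and 6881 and 7191 bp against 7564 and 6773 bp in Hs578T. A region at chr2:227813430-227814139, which spans the RefSeq start site of CCL20 at 227813842, held a peak in Hs578T control TWEAK 1 and 2 only, at 3.60 and 3.08. These peaks were 205 and 615 bp wide, and only the wider one, of TWEAK 2, covered the start site itself.

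The CCL20 promoter (chr2:227813592-227813891, plus strand) is shown because the peak of Hs578T control TWEAK 2 covered it. The peak of TWEAK 1, 205 bp wide, did not cover it or its kB match.
CCL20 promoter: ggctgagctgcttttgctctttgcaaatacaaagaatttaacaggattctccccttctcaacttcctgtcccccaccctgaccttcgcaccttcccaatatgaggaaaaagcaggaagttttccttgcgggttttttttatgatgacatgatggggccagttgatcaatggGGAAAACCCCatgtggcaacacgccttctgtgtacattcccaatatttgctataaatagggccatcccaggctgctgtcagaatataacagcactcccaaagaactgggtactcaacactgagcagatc
Its single stretch of capitals is a kB match from base -79, and none of the other 3 motifs matched.

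Because coverage does not record how tall a peak is, the fold enrichment of regions with a peak in all 16 lists was also fitted by limma. This fit was added after the data had been seen. Values were log2 fold enrichments centred on each list's median over 28337 such regions, 12 of them among the 24 regions in member windows. Before centring, the median over all regions differed by -0.22 in untreated and -0.35 in TWEAK-treated MDA-MB-231 Fn14 KO cells from control cells, on the log2 scale. Centring removed this shift, and the differences below are relative to it.

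All 3 regions that rose with TWEAK belonged to CCL20. The first, 8.43 kb upstream at chr2:227795721-227797307, had a fold enrichment of 3.25 and 3.84 in untreated and 6.91 and 5.80 in TWEAK-treated MDA-MB-231 control cells. Hs578T controls had 3.09 and 3.74 without and 6.55 and 5.72 with TWEAK, so the groups were separate in both lines. Its 8 lists of Fn14 KO cells lay between 2.91 and 4.01. The centred difference was 0.76 ± 0.16 in log2 units (SE, limma adjusted p = 0.000648) in MDA-MB-231 and 0.79 ± 0.16 (adjusted p = 0.000569) in Hs578T.

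The second, at chr2:227816750-227820353, began inside CCL20, which ends at 227817564, and lay mostly past its 3′ end. It was the tallest peak in any member window. It rose from 17.3 and 19.7 to 26.1 and 26.5 in MDA-MB-231 control cells, by 0.42 ± 0.10 on the log2 scale (limma adjusted p = 0.00154). Hs578T controls rose from 17.01 and 15.97 to 18.8 and 22.7, by 0.27 ± 0.10 (adjusted p = 0.0416), a call that was lost without centring (adjusted p = 0.0613) and when untreated 1, untreated 2 or TWEAK 2 was left out (adjusted p = 0.102, 0.136 and 0.348). The third, 56.1 kb downstream at chr2:227861870-227864003, rose from 11.5 and 14.4 to 20.1 and 19.9 in MDA-MB-231, by 0.56 ± 0.12 (adjusted p = 0.000583). It rose from 11.2 and 10.6 to 17.02 and 14.4 in Hs578T, by 0.47 ± 0.12 (adjusted p = 0.00380), and without control TWEAK 1 the adjusted p there was 0.114. In Fn14 KO cells the region at the 3′ end ranged from 13.1 to 18.8 (MDA-MB-231) and from 16.9 to 18.7 (Hs578T). The downstream region ranged from 7.76 to 10.4 and from 9.87 to 12.7. All were below the TWEAK-treated control lists of their line.

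**Figure D5:**
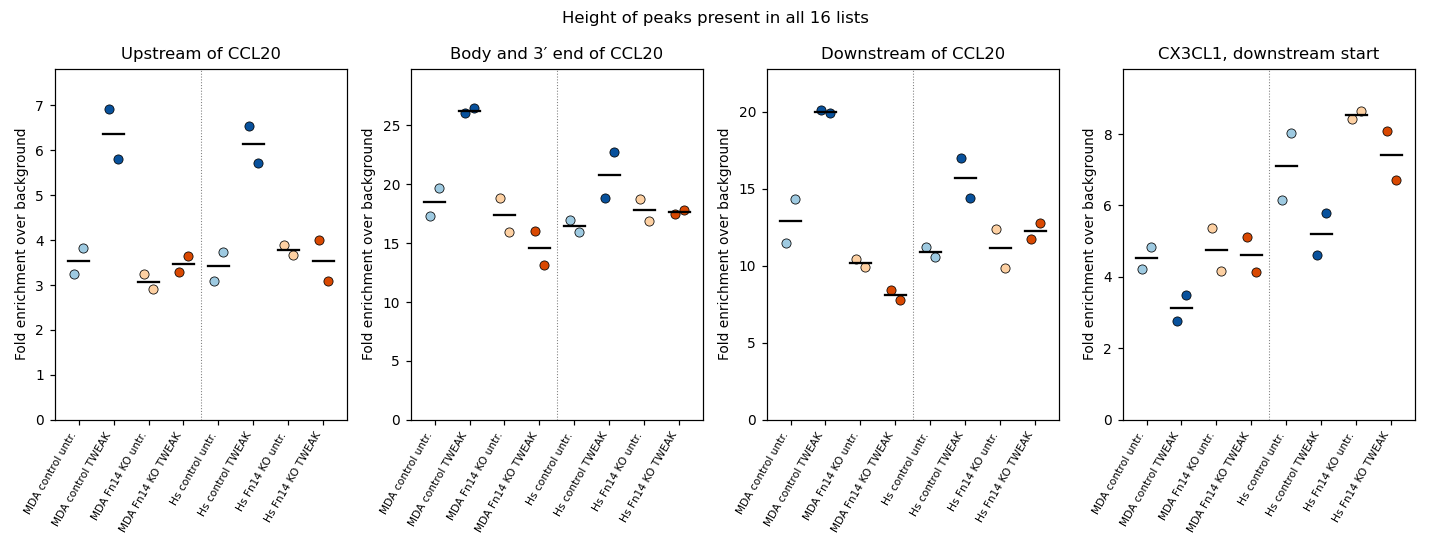
Fold enrichment over background of 4 regions with a peak in all 16 lists, with 1 point per list and means of 2 lists as bars, on linear scales from 0. The 3 regions around CCL20 are highest in TWEAK-treated control cells, up to 26.5 in the second panel. The region at the downstream start of CX3CL1 is lower with TWEAK in control cells, down to 2.76.

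Of the 12 member regions fitted, 3 rose and 3 fell in TWEAK-treated MDA-MB-231 controls, where 17.5% of all fitted regions rose and 18.1% fell. The same 6 regions moved in the same directions in Hs578T control cells, where 15.2% rose and 14.3% fell. With shares of this size over all regions, these counts are not a result particular to the members. In Fn14 KO cells no member region was called, beside 0% higher and 0% lower in MDA-MB-231 and 0% higher and 0.00353% lower in Hs578T.

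CX3CL1, at chr16:57372477-57385044 on the plus strand, encodes fractalkine, a membrane-bound chemokine that also serves as an adhesion molecule. No list had a peak near its 5′ end, while the start of a shorter transcript at 57376972 held one in all 16. That region, chr16:57376939-57379992, fell with TWEAK in MDA-MB-231 controls from a fold enrichment of 4.22 and 4.83 to 2.76 and 3.49, by 0.62 ± 0.16 on the log2 scale (limma adjusted p = 0.00362). Hs578T controls fell from 6.16 and 8.04 to 4.60 and 5.78, by 0.51 ± 0.16 (adjusted p = 0.0191). In MDA-MB-231 the call was lost without control TWEAK 1 (adjusted p = 0.0737). In Hs578T it was lost without untreated 2 or TWEAK 1 (adjusted p = 0.286 and 0.193) and without centring (adjusted p = 0.0543). Coverage of the larger window was 1475 and 1768 bp in untreated and 960 and 944 bp in TWEAK-treated MDA-MB-231 control cells, and the difference of -0.67 kb ± 0.38 did not pass (adjusted p = 0.357). In Hs578T control cells 3025 and 3935 bp stood against 3623 and 3789 bp, and the groups overlapped. Fn14 KO cells of Hs578T had 3972 and 3327 bp untreated and 4906 and 4367 bp with TWEAK, which do not overlap, but their difference of 0.99 kb ± 0.38 did not pass (adjusted p = 1). The fold enrichment at the downstream start was 5.36 and 4.16 without and 5.12 and 4.13 with TWEAK in MDA-MB-231 lacking Fn14, and 8.41 and 8.64 against 8.09 and 6.70 in Hs578T lacking Fn14. A region 44.4 kb downstream of the 5′ end, between genes at chr16:57416919-57418046, was gained in Hs578T control cells at 3.13 and 2.66, and also held a peak in MDA-MB-231 Fn14 KO TWEAK 1 and Hs578T Fn14 KO TWEAK 1, at 3.69 in each.

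CXCL16 lies at chr17:4733533-4739928 on the minus strand, encodes a membrane-bound ligand of CXCR6, and had no peak within 2 kb of any of its transcript starts. Its larger window was covered over 5452 and 6183 bp in untreated and 5286 and 4362 bp in TWEAK-treated MDA-MB-231 control cells, and 5417 and 5729 bp against 4671 and 4457 bp in Hs578T control cells. The TWEAK lists were the lower in both lines, but their differences of -0.99 kb ± 0.70 (limma adjusted p = 0.486) and -1.01 kb ± 0.70 (adjusted p = 0.438) did not pass. Fn14 KO cells had 5312 and 3052 bp against 3570 and 4003 bp in MDA-MB-231 and 4171 and 5061 bp against 5762 and 4280 bp in Hs578T, and these groups overlapped. Its peaks stood at the starts of neighbours, PELP1, ARRB2, MED11 and GLTPD2, and in the body of ARRB2. The PELP1 region at chr17:4705767-4707016 fell from 5.19 and 7.16 to 3.88 and 4.39 in MDA-MB-231 control cells and from 5.92 and 4.09 to 2.81 and 2.89 in Hs578T control cells, by 0.65 ± 0.17 (adjusted p = 0.00378) and 0.85 ± 0.17 (adjusted p = 0.000415) on the log2 scale. In MDA-MB-231 that call was lost without untreated 2 (adjusted p = 0.0676).

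Over all members, 5 of 24 regions were gained in MDA-MB-231 controls, beside 5.58% of the 55219 consensus regions, and 6 of 24 in Hs578T control cells, beside 5.09%. None was lost, beside 4.49% and 4.65%. In Fn14 KO cells 0 of 24 were gained in MDA-MB-231, beside 0.321%, and 1 of 24 in Hs578T, beside 1.05%. Of the 8 regions gained in control cells of either line, 3 were gained in both, namely the pair upstream of CCL5 and the one at the shorter CXCL11 transcripts' start. The kB consensus was matched in the central 300 bases of 5 of these 8 regions and of 1 of the other 16, beside 8.69% of all consensus regions. The interferon-stimulated response element core was matched in 1 of the 8 and 2 of the 16 (11.5% of all), the gamma-activated site in 2 and 1 (9.41%) and the AP-1 site in 1 and 3 (26.1%). The gained regions with a kB match were the 3 CCL5 regions at the start and upstream, the CCL20 start and the CXCL11 start. The matches at the CCL20 and CXCL11 starts are the same bases as those in their promoters, so the 2 tallies are not separate.

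To ask whether the response depended on Fn14, the TWEAK difference in Fn14 KO cells was set against that in control cells. In MDA-MB-231 the lists themselves differed in strength by genotype. Control lists had median −log10 q-values of 9.44, 9.95, 10.5 and 10.8. Without Fn14 the medians were 7.69, 6.90, 7.08 and 5.79, each under the 8.38 used below as a minimum. In Hs578T the medians of the genotypes overlapped. By treatment, both TWEAK lists of control cells had higher medians than both untreated lists in each line. They were 9.44 and 9.95 untreated against 10.5 and 10.8 with TWEAK in MDA-MB-231. In Hs578T control cells they were 8.84 and 7.86 against 9.04 and 9.04. In Fn14 KO cells the medians of the treatments overlapped in both lines. Coverage was not corrected for list strength, and how far this shaped the differences was not tested. In MDA-MB-231, Fn14 KO minus control was -3.83 kb ± 0.65 for CCL5 (limma adjusted p = 0.00875) and -1.95 kb ± 0.42 for the shared CXCL9 and CXCL10 window (adjusted p = 0.0329), so 3 of 7 members were called, beside 1.4% of all genes in this direction. For CXCL11 the estimate was -1.77 kb ± 0.48 with an adjusted p of 0.0931. In Hs578T it was -3.31 kb ± 0.65 for CCL5 (adjusted p = 0.0272), 1 of 7 members, beside 0.592% of all.

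These differences of differences rest on few lists. CCL5 lost its call in MDA-MB-231 without control TWEAK 2 or Fn14 KO TWEAK 1 (adjusted p = 0.0566 and 0.0558), and in Hs578T in 6 of the 8 fits that left out 1 list, those without control untreated 1, control untreated 2, control TWEAK 1, Fn14 KO untreated 2, Fn14 KO TWEAK 1 or Fn14 KO TWEAK 2 (adjusted p = 0.0578 to 0.131). CXCL9 and CXCL10 lost theirs in 6 of 8 such fits in MDA-MB-231 (adjusted p = 0.0642 to 0.135), the exceptions being those without control untreated 2 or Fn14 KO untreated 2. With the −log10 q-value minimum of 8.38 no member was called (CCL5 adjusted p = 0.110 and 0.707). With the replicate number as a block, CXCL9 and CXCL10 had an adjusted p of 0.0738 and lost their call. In an exact two-sided permutation test over all exchanges of treatment labels within line and genotype, averaged over lines, CCL5 had an estimate of -3.57 kb and p = 0.0201, a value that 4.93% of the 17915 genes reached or went below. CXCL9 and CXCL10 had -1.18 kb and an exact permutation p of 0.0463, reached by 12.3% of genes. After adjustment over all genes neither passed (adjusted p = 0.366 and 0.376), no gene did, and the smallest p the test gave was 0.00154. By limma the same average was called for 3 of 7 members, CCL5, CXCL9 and CXCL10, the last 2 through the same peaks. The share of all genes called in this average is not given here, so the count is not read as a result about the members.

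In the fold enrichment of regions, 2 of 12 member regions had a lower TWEAK difference in Fn14 KO than in control cells of MDA-MB-231. The share of all regions was 11.6%, and both lay in the CCL20 window. They were the one at the 3′ end of CCL20 (-0.61 ± 0.14 in log2 units, limma adjusted p = 0.00264) and the one downstream (-0.82 ± 0.17, adjusted p = 0.000889). The opposite held for 2, beside 10.4% of all, at the CX3CL1 downstream start (0.65 ± 0.23, adjusted p = 0.0406) and PELP1 (0.88 ± 0.24, adjusted p = 0.00881). In Hs578T the region upstream of CCL20 was lower (-0.89 ± 0.23, adjusted p = 0.00967), 1 of 12 beside 8% of all, and PELP1 higher (0.87 ± 0.24, adjusted p = 0.0145), 1 of 12 beside 6.64%. For the region upstream of CCL20 in MDA-MB-231 the estimate was -0.51 ± 0.23 (adjusted p = 0.112). Both CCL20 calls in MDA-MB-231 held in every fit that left out 1 list. The CX3CL1 call was lost in 6 of these 8 fits (adjusted p = 0.0534 to 0.177) and without centring (adjusted p = 0.166). PELP1 was lost without control untreated 2 or Fn14 KO TWEAK 1 in MDA-MB-231 (adjusted p = 0.0525 and 0.0734) and without control untreated 1 or Fn14 KO TWEAK 2 in Hs578T (adjusted p = 0.100 and 0.0578). The Hs578T call upstream of CCL20 was lost without control untreated 1, control TWEAK 1 or Fn14 KO TWEAK 2 (adjusted p = 0.0606, 0.0638 and 0.0669).

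Fn14 KO and control cells were also compared directly. Without TWEAK no member differed in coverage in MDA-MB-231, beside 1.23% of all genes called in either direction, or in Hs578T, beside 0.525%. CX3CL1 in MDA-MB-231 came nearest, with 3214 and 3076 bp in untreated Fn14 KO cells against 1475 and 1768 bp in control cells, a difference of 1.52 kb ± 0.38 (limma adjusted p = 0.0707). With TWEAK it had 3146 and 2499 bp against 960 and 944 bp and was called higher (1.87 kb ± 0.38, adjusted p = 0.00707), the only member of 7, beside 1.57% of all. The 4 Fn14 KO lists were above the 4 control lists of this line whatever the treatment. Leaving out control TWEAK 1, control TWEAK 2 or Fn14 KO TWEAK 1 ended the call (adjusted p = 0.0504, 0.0756 and 0.0938). In TWEAK-treated MDA-MB-231, CCL5 (-3.33 kb ± 0.46), CXCL9 and CXCL10 (-2.10 kb ± 0.30) and CXCL11 (-2.71 kb ± 0.34) were lower in Fn14 KO cells, 4 of 7 beside 6.96% of all genes, and in Hs578T CCL5 was (-3.02 kb ± 0.46), 1 of 7 beside 4.92%. With the −log10 q-value minimum of 8.38, CCL5 in MDA-MB-231 was the only one of these calls left. These contrasts share their TWEAK-treated control lists with the comparisons above. In MDA-MB-231 the uncorrected difference in list strength given above applies to these coverage contrasts as well. With TWEAK the control lists of Hs578T also had higher median −log10 q-values than its Fn14 KO lists. In the fold enrichment of regions without TWEAK, 1 of 12 member regions, the ARRB2 start near CXCL16, was lower in Fn14 KO than control cells of MDA-MB-231 (-0.40 ± 0.15 in log2 units, adjusted p = 0.0460), beside 13.5% of all, and leaving out any 1 of the 4 lists ended that call.

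Between the lines, averaged over genotypes and treatments, 2 of 7 members had more coverage in Hs578T, beside 47.1% of all genes, so a share of this size is no feature of the members. CX3CL1 ranged from 944 to 3214 bp, median 2133.5 bp, over the 8 lists of MDA-MB-231 and from 3025 to 4906 bp, median 3862 bp, over those of Hs578T, a difference of 1.73 kb ± 0.19 (limma adjusted p = 1.19e-05). CCL20 ranged from 5625 to 6962 bp over the former and from 6773 to 8148 bp over the latter, a difference of 0.86 kb ± 0.28 (adjusted p = 0.0201). Without Hs578T control TWEAK 2 or Hs578T Fn14 KO TWEAK 1, CCL20 was not called (adjusted p = 0.0552 and 0.0541). In fold enrichment, 4 of 12 member regions were higher in Hs578T, beside 27.3% of all, among them both regions near CX3CL1 (0.65 ± 0.081 at the downstream start and 0.51 ± 0.099 at 30.02 kb upstream, in log2 units), and 4 were lower, beside 31.6%.

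Other genes of these pathways were counted with the same test in control cells. The 6 CXC chemokine genes of the other chromosome 4 cluster were the list with the highest share of calls, with 5 higher in MDA-MB-231 and 6 in Hs578T (3.86% and 3.29% of all tested genes) and medians of 4.86 and 4.55 kb, beside -0.10 and -0.30 kb over all genes. As neighbours in a cluster these genes can share peaks in their extended windows, so their calls are not separate measurements. CXCL3, CXCL5 and CXCL2, ligands of the neutrophil receptor CXCR2, rose by 9.85, 8.22 and 6.20 kb in MDA-MB-231 and by 10.7, 9.20 and 4.53 kb in Hs578T. Of 16 NF-κB pathway genes 6 were higher and 1 lower in MDA-MB-231, beside 3.86% and 2.74% of all tested genes, and 5 higher in Hs578T, beside 3.29%, with medians of 1.13 and 1.45 kb. TNFAIP3, an inhibitor of NF-κB, rose by 11.7 and 9.74 kb, and the inhibitor-of-apoptosis genes BIRC3 and BIRC2, whose windows overlap, by 17.4 and 16.4 kb in MDA-MB-231 and 13.9 and 13.3 kb in Hs578T.

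Genes of the interferon pathway, the other CC chemokines, the receptors and the sheddases were counted in the same way. Of 24 genes of the interferon pathway and its targets 3 were higher in MDA-MB-231 and 1 in Hs578T, beside 3.86% and 3.29% of all tested genes, with medians of 0.45 and -0.12 kb. IFNAR2, a subunit of the type I interferon receptor, was called in both lines, at 2.14 kb (limma adjusted p = 0.0212) and 2.71 kb (adjusted p = 0.00636). Of 20 other CC chemokine genes 9 could be tested, with 0 called in MDA-MB-231 and 1 lower in Hs578T and medians of -0.61 and -0.29 kb. Of 13 receptor genes 11 could be tested, with 0 called in MDA-MB-231 and 1 lower in Hs578T and medians of -0.53 and -0.55 kb. Over all tested genes 2.74% and 4.08% were called lower in MDA-MB-231 and Hs578T, with medians of -0.10 and -0.30 kb. None of the 4 genes for sheddases and their partners was called in either line, with medians of -0.68 and -1.33 kb. No gene of any of these 6 lists was called in Fn14 KO cells.

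For each member called with TWEAK in control cells, the 2 genes with the most similar coverage over the 16 lists were found among genes with windows that do not overlap its own. For CCL5 these were CABS1 (Pearson r = 0.959) and SAA4 (r = 0.959), for CXCL9 and CXCL10 they were FUT4 (r = 0.975) and IRAG2 (r = 0.969), and for CXCL11 they were HSFX2 and TMEM185A (r = 0.953 each), neighbours on the X chromosome. The 16 lists are 8 pairs of replicates of 2 lines, so r describes a shared pattern over groups, and no p is given.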

How the data were processed

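H3K27ac ChIP-seq peaks of 16 samples were analysed. The authors trimmed and aligned reads to hg38 and called broad peaks against input; the submitters' processing notes name Trimmomatic, Bowtie2, MACS2 and deepTools, and the study's methods state that blacklisted regions were removed. Each deposited list gives, per peak, a fold enrichment over background, a ratio, in its seventh column, and −log10 p and q-values. Read depth is not given by the lists. No peak end lay past an hg38 chromosome end.

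Covered bases and the highest fold enrichment were computed within 2 kb of each 5′ end and within the gene body extended by 50 kb, for 20033 protein-coding genes of GENCODE 44. Kilobases were fitted with limma 3.58.1 in R 4.3.3, with 1 mean per group over all 16 lists and Benjamini-Hochberg adjustment over all tested genes, tested on simulated data, and an exact two-sided permutation test was run per gene. Peaks were merged over lists in Python 3.11.15, and regions in at least 2 lists were kept. The fit to region fold enrichments, its alternatives and the crossed replicate block were added after the data had been seen. All 9 members and every region gained or lost in control cells were named, with the 2 most similar genes of each called member and, from each pathway list, up to 3 genes called the same way in both control lines, by size. Other regions named were chosen after their values were seen. The members, lists and motifs were chosen with earlier results of these data known. Part of the marker list is not reported here.

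Groups share replicate numbers. Deviations of samples with the same number correlated between -0.715 and 0.237 over genes, not over 0.1 in every pair, so the numbers were not taken to pair samples. Alternatives were other windows, any transcript start, a log2 scale, a q-value minimum, lists trimmed to 39544 peaks, the highest fold enrichment, a replicate block, the lists of 1 line alone and leaving out each list.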

Additional observations from a re-analysis of the deposited data

Results flagged for a closer look

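The results below are those where the TWEAK difference was not the same in Fn14 KO and control cells by limma's test of the difference itself, always given as Fn14 KO minus control. No explanation of them was tested.

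In coverage of the gene body plus 50 kb, CCL5 stood apart in both lines, with -3.83 kb in MDA-MB-231 and -3.31 kb in Hs578T. CXCL9 and CXCL10, which share their peaks, stood apart in MDA-MB-231, each with -1.95 kb.

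In log2 fold enrichment of regions held by all 16 lists, the region over the 3′ part of CCL20 (-0.61) and the one downstream of CCL20 (-0.82) were lower in MDA-MB-231, and the one upstream of CCL20 (-0.89) was lower in Hs578T. The region at the downstream start of CX3CL1 was higher in MDA-MB-231 (0.65). The PELP1 start region in the CXCL16 window was higher in MDA-MB-231 (0.88) and in Hs578T (0.87).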

How the results depend on the processing

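Counts are of the 7 members tested in the gene body plus 50 kb on each side unless stated, with the value reported above in brackets where it was not 0; the causes were not tested. CCL5 kept its gain with TWEAK in MDA-MB-231 controls in all 14 alternatives (adjusted p = 5.07e-08 to 0.0117) and in Hs578T control cells in 12 of 14, the exceptions being the q-value minimum (adjusted p = 0.335) and the highest fold enrichment (adjusted p = 0.188).

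With a −log10 q-value minimum of 8.38, the median over all lists, 1 member was higher with TWEAK in MDA-MB-231 controls (4) and 0 in Hs578T (1). The difference from Fn14 KO was then called for 0 in MDA-MB-231 (3) and 0 in Hs578T (1). In TWEAK-treated cells 0 were higher (1) and 1 lower (4) in Fn14 KO than control cells of MDA-MB-231 and 0 lower in Hs578T (1), and 1 was higher in Hs578T than MDA-MB-231 (2). By the highest fold enrichment the counts in this order were 2, 0, 1, 0, 0, 2, 0 and 1. With this measure 3 members were lower with TWEAK in MDA-MB-231 controls and 3 lower in untreated MDA-MB-231 Fn14 KO cells. Both times these were CXCL9, CXCL10 and CXCL11, which have the same tallest peak, so they are not separate calls. The measure was not centred on list medians, and the shares of all genes called by it are not given here. That measure turned the sign of CXCL9, CXCL10 and CXCL11 in TWEAK-treated MDA-MB-231 controls (-0.45 each), of CXCL9 and CXCL10 in the difference from Fn14 KO (0.33 each) and of CCL20 between lines (-0.047).

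With 20 kb in place of 50 kb on each side 2 members were higher with TWEAK in Hs578T control cells, and in TWEAK-treated Fn14 KO cells 0 were higher in MDA-MB-231 and 1 higher and 2 lower in Hs578T. With 100 kb the difference from Fn14 KO was called for 1 in MDA-MB-231 and 0 in Hs578T, and with TWEAK 0 were higher in MDA-MB-231 and 0 lower in Hs578T Fn14 KO cells. On the log2 scale it was called for 1 and 0, and 1 was higher in untreated MDA-MB-231 Fn14 KO cells. With the lists of 1 line alone it was called for 1 and 0, and 2 were lower in TWEAK-treated Hs578T Fn14 KO cells. With trimmed lists 1 was higher in untreated MDA-MB-231 and 1 in TWEAK-treated Hs578T Fn14 KO cells, 1 was higher and 1 lower in Hs578T than MDA-MB-231, and 1 had a smaller TWEAK difference in Hs578T control cells. With the replicate block the difference from Fn14 KO was called for 1 member in MDA-MB-231 (3), and the numbers do not pair the samples. In the 4 untreated MDA-MB-231 lists the block called 70 genes higher and 36 lower, against 0 and 0 without it, and crossing the numbers called 0 and 0, none of them a member. The limma average over lines called 3 members, CCL5 and the pair CXCL9 and CXCL10 with the same peaks. The permutation test called 0, with a lowest possible permutation p of 0.00154.

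At the 5′ end, trimmed lists and the highest fold enrichment each called 1 member higher with TWEAK in MDA-MB-231 controls and 1 lower in TWEAK-treated Fn14 KO cells of that line. This member was CCL5, here and in the 5′ end fits below that left out 1 list. It entered only through TWEAK-treated control lists, so these calls are no separate support. Any transcript start called 1 member, CX3CL1, higher in Hs578T than MDA-MB-231. CXCL11 entered that fit only through TWEAK-treated control lists, so its calls are not given. By presence, 2 members gained a peak at any transcript start in MDA-MB-231 control cells (1) and 2 in those of Hs578T. Between lines a start window of 5 kb on each side called 1 higher and trimmed lists 1 lower. Of the 24 regions, the q-value minimum left 2 gained in MDA-MB-231 (5), 1 in Hs578T (6) and 0 in Hs578T Fn14 KO cells (1). Requiring 50% of a region to be covered gave 1 lost in MDA-MB-231, 2 gained (6) and 1 lost in Hs578T, and 0 gained in Hs578T Fn14 KO cells (1).

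Leaving out 1 list gave 0 to 3 members in the difference from Fn14 KO in MDA-MB-231, 0 to 1 in Hs578T, 0 to 1 lower in untreated and 0 to 1 higher in TWEAK-treated MDA-MB-231 Fn14 KO cells, and 1 to 2 higher in Hs578T than MDA-MB-231. At the 5′ end in Hs578T it gave 0 to 1 higher with TWEAK, 0 to 1 in the difference from Fn14 KO and 0 to 1 lower in TWEAK-treated Fn14 KO cells. For regions it gave 0 to 2 gained and 0 to 2 lost in MDA-MB-231 Fn14 KO cells, 0 to 1 lost in Hs578T control cells, and 1 to 3 gained and 0 to 1 lost in Hs578T Fn14 KO cells. Read depth is unknown, so a peak under the caller's threshold cannot be told apart from no signal.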
